A study of Homo sapiens with 12 samples.

Results

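E2F1 was precipitated from normal and from cancer cells, and the regions described here are those at which E2F1 was enriched in both. A region of the hTERT-RPE1 list was taken when it held at least 30 ChIP sequences, when its raw ratio was at least 3 (ChIP sequences plus 1, divided by IgG sequences plus 1), and when it overlapped by 1 bp or more a U2OS region that met the same limits. Of 214407 E2F1 regions listed in hTERT-RPE1 cells, 1742 met the limits, and 547 of these overlapped a U2OS region that met them. These 547 are called shared regions below. In U2OS cells 841 of 125446 listed regions met the limits. The shared regions were chosen by the ChIP counts and the raw ratios of both E2F1 libraries, so these values are given as a description, without a test.

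E2F1 is a transcription factor that binds DNA together with a DP partner protein. In resting and early G1 cells it is held by the retinoblastoma protein, and after phosphorylation of that protein by cyclin-dependent kinases it is known to activate genes for DNA synthesis and entry into S phase. CASP8AP2 (also called FLASH) and NPAT are components of the histone locus body, the nuclear body at which the histone genes of S phase are transcribed, and HINFP is a zinc finger factor known from histone H4 gene promoters.

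The ChIP-Seq libraries came from hTERT-RPE1, a line of normal retinal pigment epithelium that telomerase made immortal, and from U2OS, an osteosarcoma line. In each line E2F1, CASP8AP2, NPAT and HINFP were precipitated with 5 µg of antibody, and normal rabbit or goat IgG served as control. The cells were grown in serum without any other treatment named in the labels, and no allele differs by design between the groups. There was 1 library per factor and line, so the spread between replicates is unknown. Intervals below cover counting error only, and a difference between the libraries is not shown to be one between the lines. All positions are on NCBI36, and as the lists carry no gene names, regions are named by position. Which genes and which sequence lie under the regions was not analysed here.

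The 547 shared regions made up 31.4% of the hTERT-RPE1 regions that met the limits (95% Wilson interval 29.3 to 33.6%). They overlapped 549 U2OS regions, which were 65.3% of the U2OS list that met them (62.0 to 68.4%). For reference, the limits were met by 0.812% of all listed E2F1 regions in hTERT-RPE1 cells and by 0.670% in U2OS cells. Most shared regions, 541, overlapped a single U2OS region and 6 overlapped 2. Most of the regions left out were listed in the other line. Of the 1195 regions that met the limits in hTERT-RPE1 cells only, 979 overlapped a listed U2OS region, with a median of 23 ChIP sequences and a median raw ratio of 2.23 there. In 206 of these 979 the U2OS region failed the count limit alone, in 305 the ratio limit alone and in 468 both. Of the 292 regions that met the limits in U2OS cells only, 270 overlapped a listed hTERT-RPE1 region. A shared region is thus one that lies above 2 fixed lines in both libraries, and many regions lay close to these lines. The lower of the 2 ChIP counts was between 30 and 34 in 99 shared regions, and the lower of the 2 ratios was under 3.5 in 175.

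The regions nearest to the limits show how narrow the choice was. Just inside the ratio limit, the region on chromosome 19 at 40957962 to 40958467 had 39 ChIP and 3 IgG sequences in hTERT-RPE1 and 32 and 10 in U2OS cells, with raw ratios of 10.0 and 3. Just outside it, the region on chromosome 20 at 17897171 to 17898254 had 127 and 42 sequences in hTERT-RPE1 and 86 and 26 in U2OS cells, with ratios of 2.98 and 3.22. The region left out had more ChIP sequences in both lines than the one kept. At the count limit, the region on chromosome 19 at 13978022 to 13979143 was kept with 102 ChIP sequences in hTERT-RPE1 and 30 in U2OS cells. The region on chromosome 13 at 33290046 to 33290838 was left out with 85 and 29, at ratios of 5.38 and 7.50.

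The summits, the positions of the highest read pile, lay close together in the 2 lines, and this was not asked for by the rule. The distance between the hTERT-RPE1 and the U2OS summit had a median of 26 bp, with quartiles of 9 and 55 bp. It was at most 50 bp in 394 of 547 shared regions (72.0%, 95% Wilson interval 68.1 to 75.6%), at most 100 bp in 482 (88.1%) and at most 200 bp in 521 (95.2%). The DNA was sonicated to fragments of 200 to 400 bp, so most summits agreed within less than a fragment. In 9 regions the summits were at the same base. The distances had no side: the U2OS summit was at the higher coordinate in 273 regions and at the lower in 265. An overlap of 1 bp leaves room for larger distances, since the regions had a median length of 729 bp in hTERT-RPE1 cells. The room was smaller in these pairs. The overlap covered a median of 99.7% of the shorter region, and the summit lay at a median of 50% of the region's length in each line. Summits near the middle of regions that overlap this much lie close, and the part of this in the distances was not tested. The U2OS summit lay inside the hTERT-RPE1 region in 542 cases, and the hTERT-RPE1 summit inside the U2OS region in 541.

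Summit agreement went with the height of the read pile. Among the 152 shared regions whose lower summit held 9 to 23 reads, 71 had summits within 50 bp (46.7%, 95% Wilson interval 39.0 to 54.6%), and the median distance was 55 bp. Among the 135 whose lower summit held 42 to 142 reads, 118 did (87.4%, 80.8 to 92.0%), and the median distance was 13 bp. The 2 classes between them gave 74.6% and 83.1%. The 26 regions with summits more than 200 bp apart had median heights of 28 reads in hTERT-RPE1 and 25 in U2OS cells, against 40 and 33 in the other 521. Their median length was greater, 917 bp against 723 bp by the hTERT-RPE1 list. Their ChIP counts were not lower, with medians of 66 and 59.5 against 63 and 52.

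**Figure D1:**
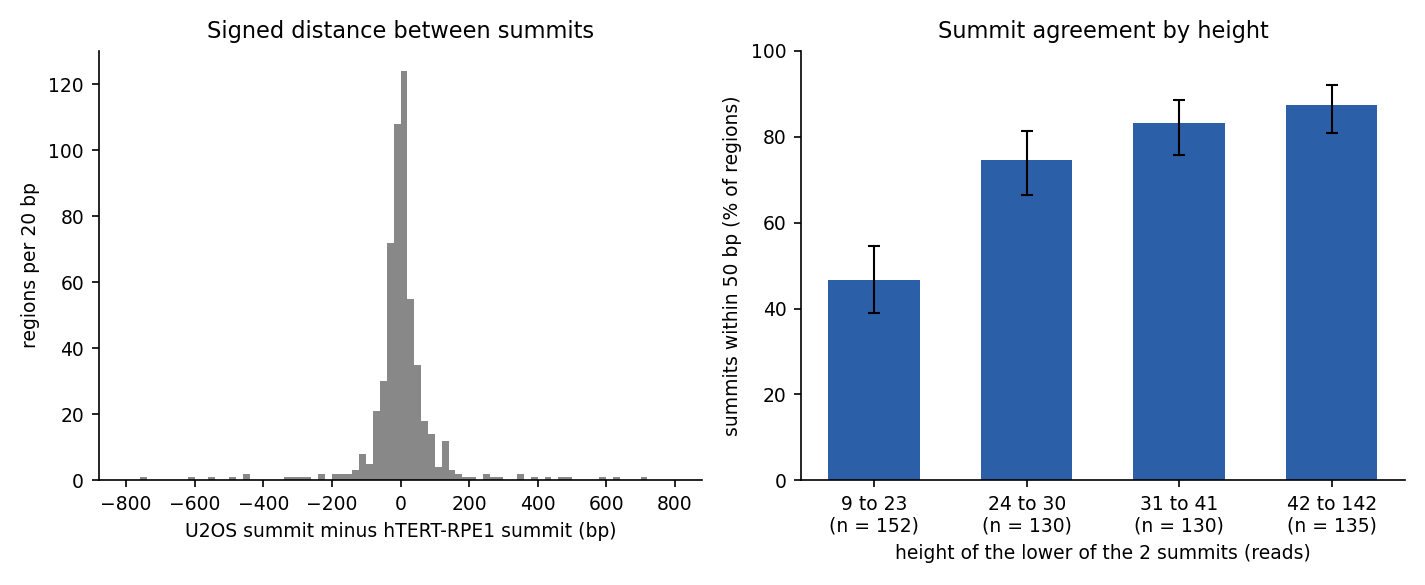
Left, the number of shared E2F1 regions per 20 bp of signed distance between the U2OS and the hTERT-RPE1 summit (bp), which pile up around 0. Right, the share of shared regions with summits within 50 bp (bars, % of regions, with 95% Wilson intervals) in 4 classes of the height of the lower summit (reads), rising from 46.7% to 87.4%.

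The 3 largest summit distances belonged to regions of few reads. On chromosome 6 the hTERT-RPE1 region at 57194818 to 57195624 had its summit at 57195174 with a height of 16 reads, and the U2OS region at 57194208 to 57195451 had it at 57194417 with 19 reads, 757 bp away. On chromosome 1 the regions at 93417685 to 93418359 and 93418352 to 93419178 overlapped by only 8 bp, with summits 710 bp apart and 15 reads at each. On chromosome 11 the summits of the regions at 118470170 to 118471115 and 118470918 to 118471791 were 623 bp apart, with heights of 15 and 25 reads. In these 3 cases the tops of the 2 lines lay apart, and whether they belong to separate read piles was not examined. The chromosome 6 regions overlapped by 634 bp. Not all large distances came with few reads in both lines, as a region on chromosome 19 at 4860251 to 4861357 had summits 557 bp apart with heights of 75 and 26 reads. Small overlaps were few, as the overlap covered at least 50% of the shorter region in 543 of 547, and the whole of it in 267.

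The shared regions were long for listed E2F1 regions but not for regions that met the limits. Their median length was 729 bp in hTERT-RPE1 cells (95% interval of the median 701 to 758 bp), against 730 bp for the regions that met the limits in hTERT-RPE1 cells only and 290 bp for all listed regions. In U2OS cells the medians were 689 bp for the 549 overlapping regions, 700 bp for the regions that met the limits in U2OS cells only and 299 bp for all listed. A region must hold many sequences to meet the count limit, and length and count are bound together in these lists. More than 1000 bp was reached by 20.1% of the shared regions in hTERT-RPE1 cells, and by 14.7% of the regions of hTERT-RPE1 cells only. Within a pair the lengths agreed loosely. The U2OS region was a median of 0.983 times as long as the hTERT-RPE1 region, the quotient was within 1.5-fold in 399 pairs (72.9%) and beyond 2-fold in 32, and the hTERT-RPE1 region was the longer in 282 pairs and the U2OS region in 264. Spearman's rho of the lengths over the 547 pairs was 0.39.

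**Figure D2:**
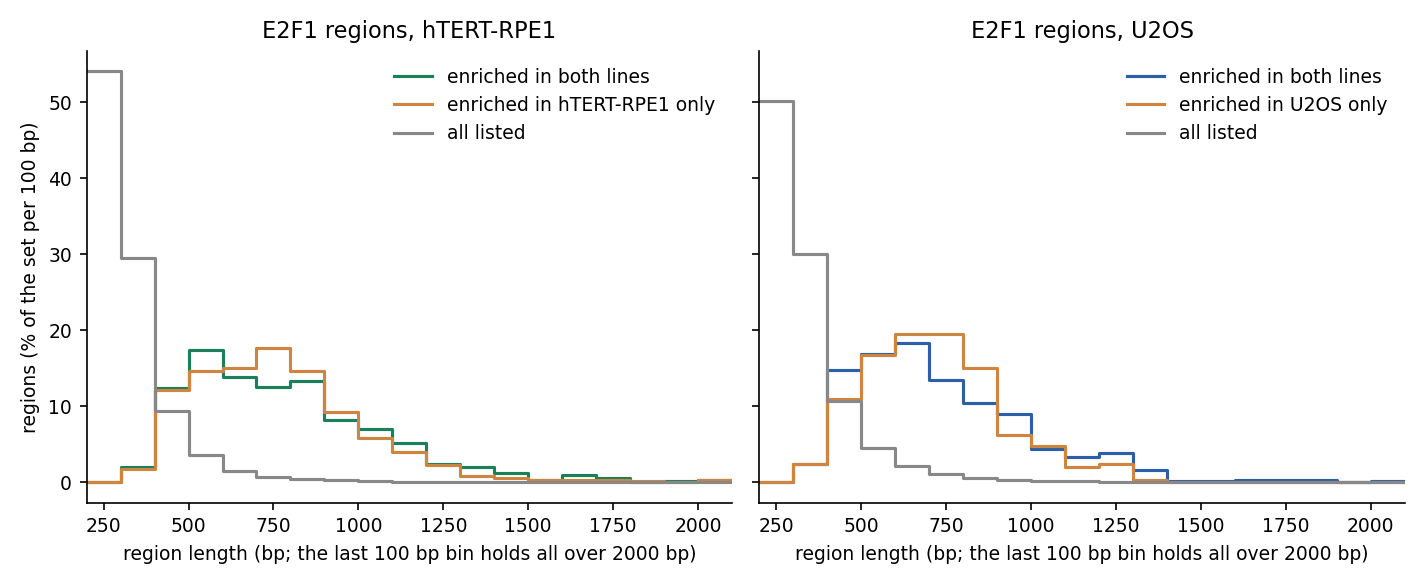
Length of E2F1 regions (bp) in bins of 100 bp, as % of each set, for hTERT-RPE1 (left) and U2OS (right). In each line the shared regions and the regions that met the limits in that line only (both called enriched) mostly lie between 400 and 1000 bp, with medians between 689 and 730 bp, while most listed regions are under 400 bp.

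The shared regions stood above the other regions that met the limits in the number of reads and, less so, in raw ratio, with a median of 4.86 against 3.95 in hTERT-RPE1 and 4.36 against 3.84 in U2OS cells. Their median height was 39 reads and their median ChIP count 64 in hTERT-RPE1 cells, against 22 reads and 40 sequences in the regions of hTERT-RPE1 cells only. In U2OS cells the medians were 33 reads and 52 sequences, against 21 reads and 37 sequences in the regions of U2OS cells only. Per kb the ChIP sequences had a median of 86.0 in the shared regions in hTERT-RPE1 cells and 57.9 in those of hTERT-RPE1 cells only. IgG sequences per kb were also higher, 16.2 against 12.8, and 15 over all listed regions. The rule asked for many sequences in a second library as well, and a higher count in the first goes with that. The threshold of the study's methods was taken as p under 0.00001 and fold change above 2, though its text prints p as above that value. The shared regions passed it in hTERT-RPE1 cells in 478 cases and in both lines in 445. Of the 1195 regions of hTERT-RPE1 cells only, 646 passed, and of all 214407 listed regions 1516. The threshold rests on the same counts as the rule, so passing it goes with the limits.

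By raw ratio the 2 lines ordered the shared regions only in part alike. Over the 547 pairs Spearman's rho was 0.34 and Pearson's r of the log2 ratios was 0.36. The ratios of both lines were limited at 3 by the rule, the points share their place in the genome but no library, and regions are not replicates, so no p is given. The ChIP counts gave a rho of 0.52, the ChIP counts per kb 0.61 and the height 0.67. The IgG counts, which enter the ratio as its denominator, gave 0.25. The agreement by raw ratio was looser in regions of few sequences: rho was 0.27 in the 140 regions with the fewest ChIP sequences and 0.49 in the 138 with the most. Among the 50 highest raw ratios of each line 13 regions were the same, and among the 50 highest summits 23 were. None of the 10 highest raw ratios was in common.

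Read along the hTERT-RPE1 ratio, the U2OS ratio rose at the upper end. In the lowest of 4 equal classes, with hTERT-RPE1 ratios from 3 to 3.79, the median U2OS ratio was 4 (quartiles 3.44 and 4.71). In the next 2 classes it was 4.15 and 4.40. In the highest class, with hTERT-RPE1 ratios of 6.62 and above, it was 5.65 (4.25 and 7.50). The median IgG count of hTERT-RPE1 cells fell over these classes from 16 to 8, while that of U2OS cells stayed between 10 and 12. The classes were formed by a ratio with the hTERT-RPE1 IgG count as its denominator, so a fall of that count is favored by the sorting. Median ChIP counts rose from the lowest to the highest class, from 56 to 81 in hTERT-RPE1 and from 46 to 66 in U2OS cells.

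**Figure D3:**
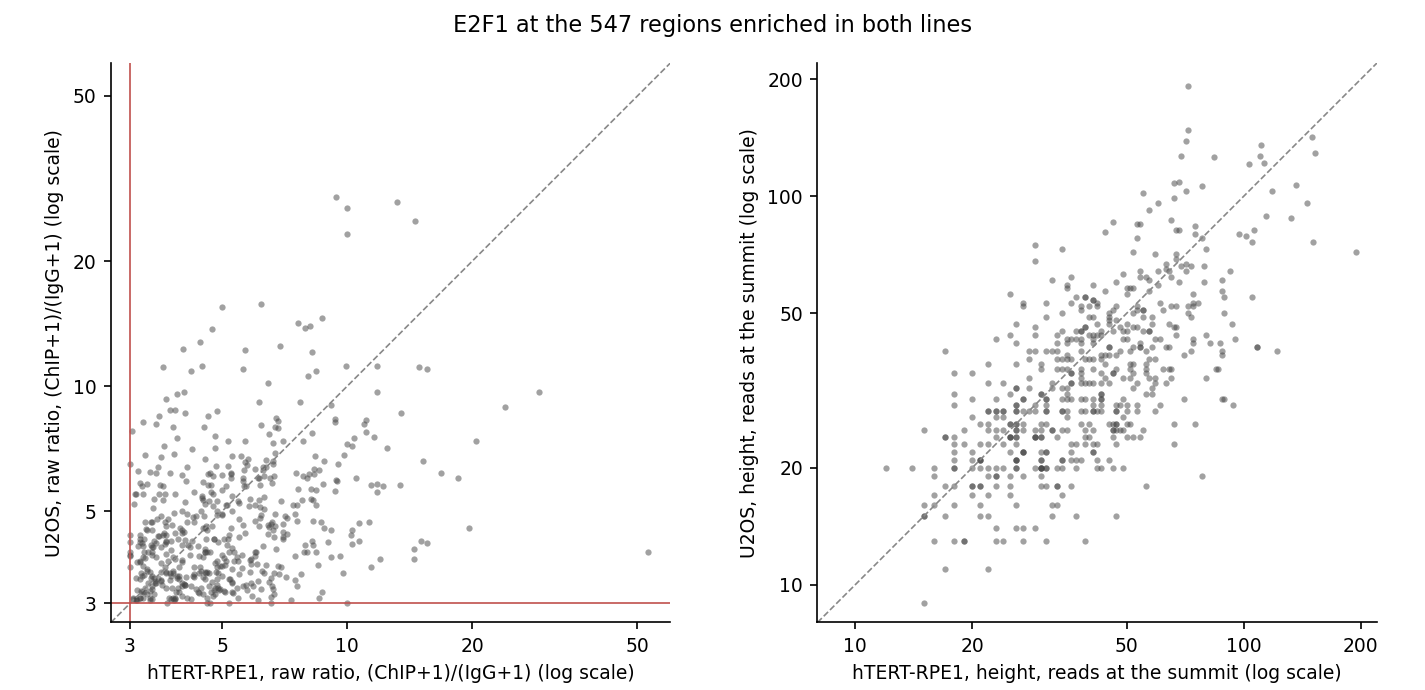
Each point is a shared E2F1 region. Left, raw ratio in U2OS against hTERT-RPE1 cells (log axes, the limit of 3 in red, the line of equal values dashed), with a rho of 0.34. Right, summit height in reads (log axes), which the rule did not limit, with a rho of 0.67.

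At a single region the raw ratios of the 2 lines were mostly not far apart. The raw ratio was higher in hTERT-RPE1 cells in 321 regions and in U2OS cells in 226, with a median quotient of 1.07, and 478 regions (87.4%) lay within 2-fold. The raw ratio is not scaled for depth. The deposited fold change multiplies it by 0.945 in hTERT-RPE1 and by 1.06 in U2OS cells, which moves this balance toward U2OS cells. The 321 and 226 regions thus do not show which line was higher. The exact 95% intervals of the ratio in the 2 lines overlapped in 545 of the 547 regions. Such an overlap is not a test of the difference and does not show that the ratios were equal. Of the other 2, the region on chromosome X at 48440247 to 48440656 had 52 ChIP and 0 IgG sequences in hTERT-RPE1 and 67 and 16 in U2OS cells. Its hTERT-RPE1 count was at least 17.3-fold over the 3 counts that a count of 0 allows, and its U2OS ratio was 4 (2.32 to 7.26). The heights were 48 and 46 reads and the summits 17 bp apart, so the lines differed there in the IgG count and hardly in the read pile of E2F1. The other region, on chromosome 2 at 113119486 to 113120670, had 120 ChIP and 29 IgG sequences in hTERT-RPE1 and 134 and 10 in U2OS cells, with ratios of 4.03 (2.69 to 6.23) and 12.3 (6.64 to 25.2). Here too the ChIP counts were close and the IgG counts were apart, and the U2OS region, with 538 bp, was shorter than the hTERT-RPE1 region, with 1185 bp.

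Other pairs with high quotients had overlapping intervals. On chromosome 11 at 73981086 to 73981631 the ratio was 19.6 (8.12 to 61.7) in hTERT-RPE1 cells, from 97 ChIP and 4 IgG sequences, and 4.55 (2.34 to 9.68) in U2OS cells, from 49 and 10. On chromosome 3 at 128799713 to 128800382 it was 14.5 (6.40 to 40.6) and 3.83 (2 to 7.95). In both regions the summits of the lines were 1 bp apart. At the other end, the region on chromosome 4 at 1692887 to 1693238 had ratios of 5.00 (2.19 to 13.3) and 15.5 (3.94 to 134), the latter from 30 ChIP and 1 IgG sequences, and the region on chromosome 5 at 137117980 to 137119001 had 3.61 (2.35 to 5.70) and 11.1 (5.16 to 28.6). Both had their summit at the same base in the 2 lines. Over the 69 regions whose ratios differed by more than 2-fold the median summit distance was 17 bp, against 26.5 bp over the other 478.

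A few regions were strong in both lines. Both ratios were at least 5 in 131 shared regions and at least 10 in 7. By the lower of the 2 ratios the first was the region on chromosome 7 at 148212138 to 148213053, with 174 ChIP and 11 IgG sequences in hTERT-RPE1 (ratio 14.6, exact 95% interval 8.14 to 28.8) and 49 and 1 in U2OS cells (25, 6.57 to 212). Its height was 88 reads in hTERT-RPE1 and 39 in U2OS cells. The next, on chromosome 11 at 58668392 to 58669093, had 157 and 11 sequences and 138 and 4 sequences, with ratios of 13.2 (7.33 to 26) and 27.8 (11.6 to 87.0) and summits 5 bp apart. The region on chromosome 7 at 44854028 to 44854992 followed with ratios of 11.8 and 11.2 and summits 3 bp apart. The region on chromosome 19 at 10540172 to 10541336 had 207 ChIP and 13 IgG sequences in hTERT-RPE1 and 166 and 14 in U2OS cells. Its ratios were 14.9 (8.66 to 27.7) and 11.1 (6.56 to 20.3), its heights 150 and 142 reads, and its summits 3 bp apart, and it was the only region among both the 10 with the highest lower ratio and the 5 with the most ChIP sequences. On chromosome 4 at 1683640 to 1684564, where 218 ChIP sequences were counted in hTERT-RPE1 and 120 in U2OS cells, the ratios were 15.6 and 11. This region and the one at 1692887 named above lie within 10 kb of each other. The other 5 of the 10, on chromosomes 2, 9, 14 and 16, had lower ratios between 9.67 and 10.0. Summits of the 10 regions were between 2 and 108 bp apart.

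The most ChIP sequences were counted on chromosome 2 at 10179600 to 10181005, with 216 in hTERT-RPE1 and 285 in U2OS cells. The IgG counts there were 33 and 42 and the ratios 6.38 (4.43 to 9.45) and 6.65 (4.81 to 9.39), so the 2 lines had nearly equal ratios there. The regions on chromosome 17 at 53438824 to 53440483, on chromosome 8 at 124477645 to 124478461 and on chromosome 12 at 47810606 to 47811262 had ratios of 6.82 and 3.69, of 10.0 and 7.28 and of 11.1 and 7.78. All 3 were higher in hTERT-RPE1 cells, with intervals that overlapped those of U2OS cells.

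The shared regions lay on chromosomes 1 to 22 and X, with none on Y, on the mitochondrial genome or on an unplaced contig. Chromosome 1 held 57, chromosome 2 held 55 and chromosome 11 held 41, while chromosome 21 held 5 and chromosome X held 4. Over the 23 chromosomes, their number had a rho of 0.87 with the number of hTERT-RPE1 regions that met the limits. With the number of all listed hTERT-RPE1 regions the rho was 0.49. The shared regions are a part of both sets and a far larger part of the first. This raises the first rho by construction, so the 2 values are not compared. Chromosome 19 held 6.58% of the shared regions (95% Wilson interval 4.79 to 8.98%), more than its 2.22% of the listed regions. Chromosome 10, with the most listed regions of all in hTERT-RPE1 cells, 21744, held 4.2% of the shared regions (2.82 to 6.23%) against 10.1% of the listed. In all, the interval lay above the share of listed regions on 7 chromosomes and below it on 4. Against the regions that met the limits in hTERT-RPE1 cells it lay above on 1, chromosome 2, and below on 2, chromosomes 3 and 13. On chromosome 2, 42.3% of the hTERT-RPE1 regions that met the limits were shared, on chromosome 3 18.2% and on chromosome 13 12.2%. These shares hold for the hTERT-RPE1 list only. In U2OS cells 81, 22 and 8 regions met the limits on chromosomes 2, 3 and 13, beside 55, 16 and 6 shared regions. Against the U2OS list chromosomes 3 and 13 were thus not poor in shared regions.

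Counts at the shared regions differed between the lines by chromosome, and ChIP and IgG did so together. The median quotient of the hTERT-RPE1 over the U2OS ChIP count ran from 0.670 on chromosome X to 1.88 on chromosome 21, and was under 1 on 5 of 23 chromosomes. On chromosome 10 it was 1.5 for ChIP and 1.5 for IgG, on chromosome 19 1.53 and 1.34, and on chromosome 8 0.862 and 0.778. Over the 23 chromosomes the 2 quotients had a rho of 0.84, in which both come from the same regions and the same pair of lines. The raw ratio, in which such shifts of ChIP and IgG divide out, had chromosome medians between 4.27 and 6.54 in hTERT-RPE1 cells and between 3.67 and 7.20 in U2OS cells. The number of chromosome copies in the lines was not tested.

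**Figure D4:**
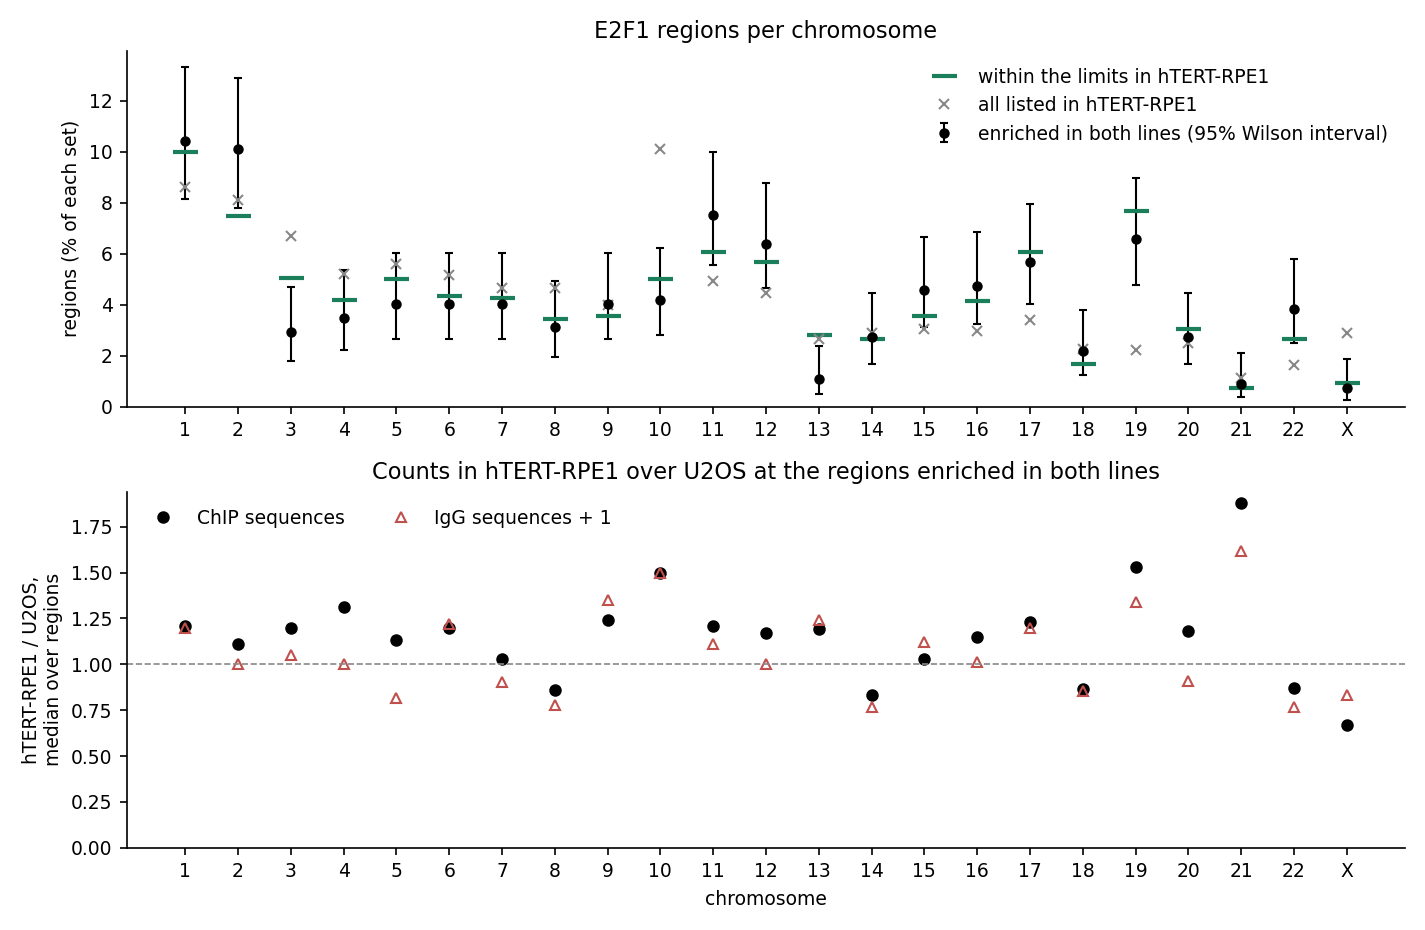
Top, % of the 547 shared regions on each chromosome (points, 95% Wilson intervals), of the 1742 hTERT-RPE1 regions that met the limits (bars) and of all listed hTERT-RPE1 regions (crosses), where chromosomes 10 and 19 show the widest gaps between points and crosses. Bottom, median over the shared regions of the hTERT-RPE1 over U2OS quotient of ChIP sequences (points) and of IgG sequences plus 1 (triangles), which move together.

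Neighboring shared regions were far apart, with a median gap of 1959422 bp. In 25 of 524 gaps the next region began within 50000 bp, and in 5 within 5000 bp. All 5 of these were under 1000 bp, and the smallest was 13 bp, on chromosome 11 between the regions at 118470170 to 118471115 and 118471129 to 118471846. On chromosome 11 and on chromosome X, where the regions at 53465659 to 53466068 and 53466094 to 53466611 lay 25 bp apart, both had the same U2OS ratio, 6.38 on chromosome 11 and 8 on X, because both were paired with 1 U2OS region.

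Regions of the other factors were listed at most shared E2F1 regions, but were mostly weak. A listed region of CASP8AP2, NPAT or HINFP from either line overlapped 515 of the 547 (94.1%). A share pooled over libraries cannot be lower than that of a single library. It was not computed for other E2F1 regions, so 94.1% has no reference here. Given first for hTERT-RPE1 and then for U2OS libraries, with 95% Wilson intervals, the share was 37.8% (33.9 to 42.0%) and 73.3% (69.4 to 76.8%) for CASP8AP2, for NPAT 47.9% (43.7 to 52.1%) and 71.7% (67.7 to 75.3%), and for HINFP 13.5% (10.9 to 16.7%) and 25.4% (21.9 to 29.2%). Over all listed hTERT-RPE1 E2F1 regions the shares were 10.5% and 14.2% for CASP8AP2, 14.5% and 20.6% for NPAT, and 4.22% and 3.10% for HINFP. At the shared regions, the listed regions of these factors had median raw ratios between 1.5 (CASP8AP2 in hTERT-RPE1 cells) and 2.05 (HINFP in hTERT-RPE1 cells). In 5 of the 6 libraries this was under the median of the whole library, and for CASP8AP2 in U2OS cells both were 2. A region is listed at 8 reads of height, so a listed region is no sign of enrichment over IgG.

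Length moved with these shares. Shared regions are longer than most listed E2F1 regions. Among regions of 500 to under 1000 bp, a class chosen after the data were seen, the gap to E2F1 regions outside the limits was smaller. The class did not match the 2 sets. By the hTERT-RPE1 list the median length was 714 bp for shared regions and 578 bp for regions outside the limits. Their median E2F1 ChIP counts were 61 and 21. In that class CASP8AP2 was listed at 38.3% of 358 shared regions in hTERT-RPE1 cells and at 27.1% of 12808 regions outside the limits, and NPAT at 48.0% and 32.6%. HINFP in hTERT-RPE1 cells was listed at 12% and 12.1%, with no gap. In U2OS cells the gaps of the class were wider, 72.9% against 34% for CASP8AP2, 71.5% against 39.8% for NPAT and 23.7% against 10.1% for HINFP.

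Against the E2F1 regions of hTERT-RPE1 cells only, the shared regions differed in the U2OS libraries more than in the hTERT-RPE1 libraries. The rule split these sets by the E2F1 count and raw ratio in U2OS cells. A larger difference in the U2OS libraries can thus follow from the rule itself, and the part of the rule in it was not tested. CASP8AP2 in U2OS cells was listed at 56.4% of the regions of hTERT-RPE1 cells only (53.6 to 59.2%), NPAT at 56.2% (53.3 to 58.9%) and HINFP at 18.2% (16.2 to 20.5%), each with an interval under that of the shared regions. For the hTERT-RPE1 libraries the shares were 36.4%, 43.2% and 16.4%, with intervals that overlapped those of the shared regions. The E2F1 regions of U2OS cells only had shares in the U2OS libraries of 74.3%, 69.9% and 21.9%, with intervals that overlapped those of the shared regions. Over all listed U2OS E2F1 regions they were 25.8%, 33.3% and 6.72%. At like E2F1 counts in hTERT-RPE1 cells the gaps of CASP8AP2 and NPAT in U2OS cells were smaller. Among regions with 50 to 99 ChIP sequences in hTERT-RPE1 cells, a class also chosen after the data were seen, CASP8AP2 in U2OS cells was listed at 73.3% of the shared regions (67.9 to 78.1%) and 67.0% of those of hTERT-RPE1 cells only (61.5 to 72.0%), and NPAT at 73.0% (67.5 to 77.8%) and 64.7% (59.2 to 69.9%), with overlapping intervals. The gap of HINFP in U2OS cells was not smaller, with 24.2% (19.6 to 29.5%) and 17.5% (13.6 to 22.2%), but these intervals overlapped too. In the hTERT-RPE1 libraries the shares of this class were lower at the shared regions, 39.6% against 47.5% for CASP8AP2, 52.3% against 57.1% for NPAT and 11.9% against 19.5% for HINFP, with overlapping intervals. The class was not matched for length, with which these shares moved. Its median length was 754 bp for the shared regions and 898 bp for those of hTERT-RPE1 cells only.

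Few regions of the other factors met the limits themselves. At 56 shared regions (10.2%, 95% Wilson interval 7.97 to 13.1%) a region of CASP8AP2, NPAT or HINFP in either line met them. The limits were at least 30 ChIP sequences and a raw ratio of at least 3. This share is pooled over the libraries and was not computed for other E2F1 regions, so it has no reference here. In hTERT-RPE1 cells CASP8AP2 met the limits at 2 shared regions, NPAT at 17 (3.11%) and HINFP at 1. In U2OS cells the numbers were 21 (3.84%), 25 (4.57%) and 3. Over all listed hTERT-RPE1 E2F1 regions the shares were 0.0382% for CASP8AP2, 0.119% for NPAT and 0.0294% for HINFP from hTERT-RPE1 cells, and 0.102%, 0.203% and 0.0359% from U2OS cells. In U2OS cells CASP8AP2 met the limits at 0.502% of the E2F1 regions of hTERT-RPE1 cells only (0.230 to 1.09%) and at 5.14% of those of U2OS cells only (3.14 to 8.30%), and NPAT at 1.34% (0.826 to 2.16%) and 5.48% (3.40 to 8.71%). Over all listed U2OS E2F1 regions the U2OS shares were 0.193% for CASP8AP2, 0.417% for NPAT and 0.0598% for HINFP. E2F1, CASP8AP2 and NPAT regions of a line with nearly the same ends had the same IgG counts, so these 3 lists share an IgG library, and a low IgG count raises the ratio of all 3. Its part in these shares was not tested. HINFP met the limits at 0.548% of the shared regions in U2OS cells and at 0.418% of those of hTERT-RPE1 cells only, with overlapping intervals.

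**Figure D5:**
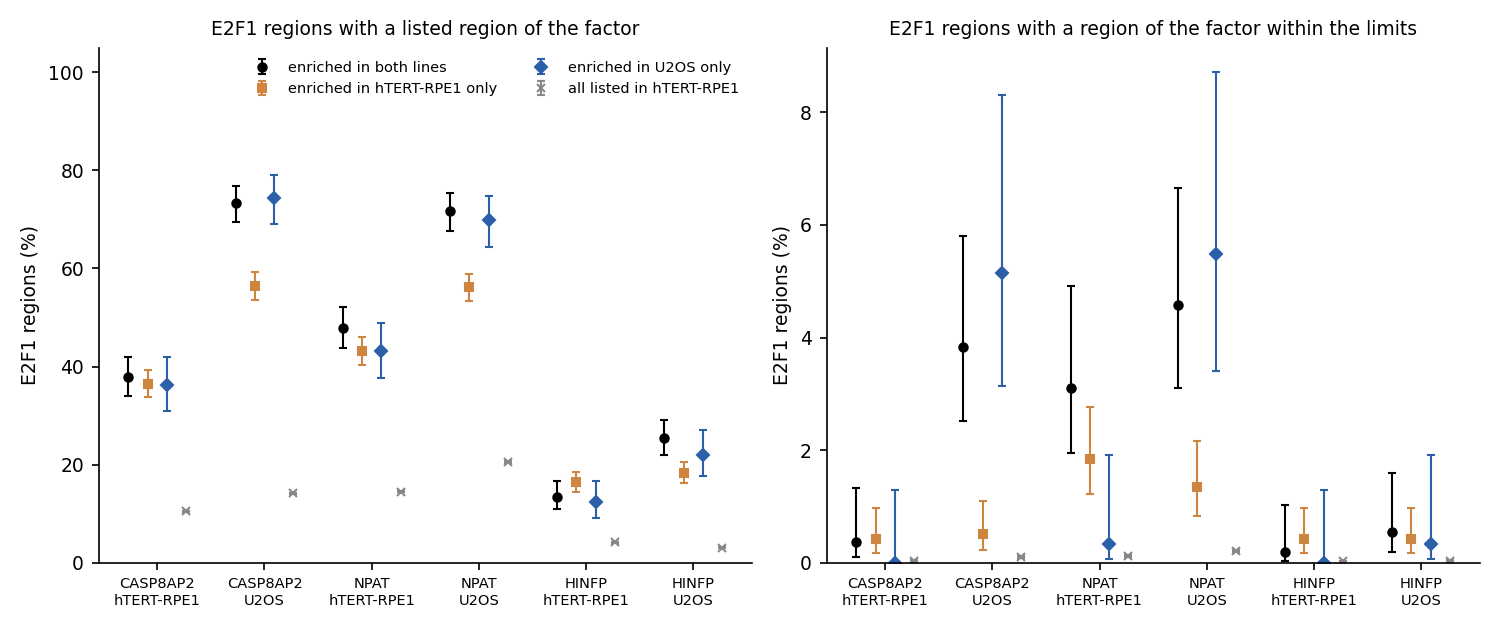
Share of E2F1 regions (%, 95% Wilson intervals) that overlap a listed region (left) or a region within the limits (right) of CASP8AP2, NPAT or HINFP in either line, for shared regions, regions within the limits in 1 line only and all listed hTERT-RPE1 regions. Listed regions overlap 13.5% to 73.3% of the shared regions, and regions within the limits at most 4.57%.

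By ChIP count, the strongest CASP8AP2 and NPAT regions at shared regions lay on chromosome 6 between 26 and 28 Mb. CASP8AP2 and NPAT both met the limits in both lines at 2 shared regions, and these 2 lie here. At the shared E2F1 region at 26139842 to 26140591, NPAT had 493 ChIP and 54 IgG sequences in hTERT-RPE1 (ratio 8.98, exact 95% interval 6.79 to 12.1) and 609 and 64 in U2OS cells (9.38, 7.26 to 12.3). CASP8AP2 had 132 and 33 (3.91, 2.67 to 5.88) and 349 and 57 (6.03, 4.56 to 8.11), while E2F1 itself had 72 and 18 (3.84, 2.29 to 6.74) and 48 and 15 (3.06, 1.71 to 5.77). The summits of E2F1 were 1 bp apart between the lines, and that of NPAT lay 169 bp from it in hTERT-RPE1 and 116 bp in U2OS cells. E2F1 was thus near the lower limit at a site where NPAT was far above it. At 27207481 to 27209151 the E2F1 ratios were 6.26 and 6.27, the NPAT ratios 11.1 and 7.84 and the CASP8AP2 ratios 5.93 and 5.88. Here the NPAT summit lay 1043 bp from the E2F1 summit in hTERT-RPE1 and 1121 bp in U2OS cells, and that of CASP8AP2 1076 and 1124 bp. The regions overlapped, but the read piles of E2F1 had their top more than 1 kb away from those of the other factors, and the distance was similar in the 2 lines. Another shared region of this stretch, at 27970063 to 27970780, had E2F1 ratios of 5.79 and 5.14, and an NPAT region in hTERT-RPE1 cells at a ratio of 3.06 (2.06 to 4.65) with its summit 576 bp away.

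Outside this stretch, enrichment of another factor was mostly found in 1 line. NPAT met the limits in both lines at 6 shared regions, 2 of them in this stretch and 4 outside it. One of the latter was the region on chromosome 22 at 18484521 to 18485215, where its ratio was 5.08 (2.71 to 10.4) in hTERT-RPE1 cells and 6.62 (3.67 to 12.9) in U2OS cells, with summits 2 and 31 bp from that of E2F1. On chromosome 12 at 52959436 to 52960638 NPAT reached a ratio of 12.8 (4.69 to 48.6) in hTERT-RPE1 cells, from 50 ChIP and 3 IgG sequences. In U2OS cells it had a listed region there at a ratio of 2.84, just under the limit of 3. The count in 1 line thus depends on the limits. By the ratio alone, NPAT reached 3 in both lines at 16 shared regions. Among NPAT regions within the limits in U2OS cells, the highest ratio after those on chromosome 6 was 7.75 (2.74 to 30.2) on chromosome 19, at the shared region 53365148 to 53365870, from 30 ChIP and 3 IgG sequences. Among CASP8AP2 regions within the limits at shared regions the highest ratio was 6.50 (2.73 to 18.8), in U2OS cells on chromosome 2 at 9900661 to 9901441, from 38 ChIP and 5 IgG sequences. These 3 regions held few IgG sequences and had wide intervals, which for the last 2 began under 3.

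HINFP met the limits at 3 shared regions. On chromosome 1 at 153480809 to 153481519 it did so in both lines, with 144 ChIP and 6 IgG sequences in hTERT-RPE1 (ratio 20.7, 9.80 to 52.4) and 52 and 8 in U2OS cells (5.89, 2.88 to 13.6). Its summits lay 44 and 47 bp from those of E2F1, whose ratios were 3.17 and 4.38. This was the highest ratio of HINFP at any shared region. In U2OS cells HINFP also met them on chromosome 4 at 185891964 to 185892686 with a ratio of 6.62 (3.13 to 16.1), 106 bp from the E2F1 summit, and on chromosome 12 at 730534 to 731031 with 3.91 (1.98 to 8.41), 80 bp from it.

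Within the shared regions, listed regions of NPAT in both lines and of HINFP in U2OS cells were less frequent where the E2F1 ratio was higher. No intervals are given for these classes, so the falls are not shown to exceed counting error. In the 137 regions with the highest lower E2F1 ratio, 4.86 to 14.6, NPAT in U2OS cells was listed at 67.2%, and in the 137 with the lowest, 3 to 3.37, at 78.1%. For HINFP in U2OS cells these shares were 19.7% and 33.6%, and for CASP8AP2 in U2OS cells 75.2% and 73.7%. For CASP8AP2, NPAT and HINFP in hTERT-RPE1 cells the shares were 36.5%, 42.3% and 13.1% in the highest class and 43.8%, 54.0% and 13.1% in the lowest. NPAT regions within the limits numbered 6 in the highest class and 8 in the lowest in U2OS cells, but 7 and 4 in hTERT-RPE1 cells. Of the 10 regions with the highest lower E2F1 ratio, 1 had no listed region of another factor, on chromosome 2 at 130655318 to 130655841, and the others had 1 to 5.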

How the data were processed

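ChIP-Seq lists of 8 libraries were used, and the 4 IgG libraries entered only through the IgG counts of each region. The authors mapped reads to NCBI36 (hg18 in the submitters' processing notes) and called regions in each library by itself. The aligner, the caller and the handling of duplicate reads are not given in the sources used here. The deposited counts of ChIP and IgG sequences are whole numbers per region without normalization, and the signal in the deposited height column is the number of reads at the summit, at least 8. The IgG library behind each list is not given in the sources used here, but E2F1 regions whose ends lay within 3 bp of a CASP8AP2 or NPAT region of the same line had the same IgG count in 94 of 98 cases. The deposited fold change is a ratio, the raw ratio times a constant of the library (0.945 for the hTERT-RPE1 and 1.06 for the U2OS list of E2F1), and the deposited p-value compares the 2 counts without adjustment. The fold change and the p-value were used only for alternatives and for the threshold of the methods, taken as p under 0.00001 and fold change above 2. Total reads per library are unknown.

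Each shared region was paired with the U2OS region of largest overlap. Shares have Wilson intervals, raw ratios exact (Clopper-Pearson) intervals from the 2 counts with 1 added, and medians intervals from order statistics, all at 95% and for counting error only. With 1 library per factor and line no test was made. Regions named were the 10 with the highest lower ratio, the 5 with the most ChIP sequences, the 3 with the largest summit distance, the 3 highest and the 3 lowest quotients of the ratios, the 3 nearest to each limit on either side, up to 5 with the highest ratios of each other factor within the limits, and those on chromosome 6 from 26 to 28 Mb. From each of these only part is given in full. The pairs under 5000 bp apart and the region on chromosome 19 at 4860251 were chosen after their values were seen. The shared regions and the lists were chosen with earlier results of these data known. Genes, promoters and motifs were not analysed, because the reference tables used here are on another build. The overlap code was tested on simulated regions. The work was done in Python 3.11.15 with scipy 1.17.1 for intervals and correlations, pandas 2.3.3 and numpy 2.4.6 for tables, and matplotlib 3.10.9 for plots.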

Additional observations from a re-analysis of the deposited data

How the results depend on the processing

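The number of shared regions depends on the limits. It was 256 with at least 50 ChIP sequences, 1040 with a raw ratio of at least 2 and 132 with a raw ratio of at least 5. It stayed between 523 and 763 with at least 20 ChIP sequences, with the deposited fold change, with the threshold of the methods, with an overlap of at least 50% of the shorter region and with summits within 200 bp. The median summit distance was 21 bp with at least 50 ChIP sequences and 15.5 bp with a ratio of at least 5. Under these 2 alternatives the median length was 813 and 698 bp in hTERT-RPE1 cells and 804 and 659 bp in U2OS cells, and at the threshold of the methods it was 780 bp in hTERT-RPE1 cells. The rho of the raw ratio was 0.28 to 0.41 under the other limits, with 5 added to each count and with at least 5 IgG sequences, and height and ChIP sequences in its place gave 0.67 and 0.52.

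For listed regions of other factors, in % of shared regions, at least 50 ChIP sequences gave 43.0 for CASP8AP2 in hTERT-RPE1 cells, 80.9 for CASP8AP2 in U2OS cells and 79.3 for NPAT in U2OS cells. A ratio of at least 5 gave 41.7 for NPAT in hTERT-RPE1 cells, 66.7 for NPAT in U2OS cells and 18.9 for HINFP in U2OS cells. The threshold of the methods gave 42.5 for CASP8AP2 and 52.3 for NPAT in hTERT-RPE1 cells, and shared regions with 50 to 99 ChIP sequences gave 52.3 for the latter. When the E2F1 summit had to lie inside the region of the other factor, the shares fell in every library. They were 22.3 and 52.5 for CASP8AP2, 29.3 and 47.0 for NPAT and 6.03 and 14.1 for HINFP, in hTERT-RPE1 and U2OS cells. The requirement is narrower by construction.

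For regions of other factors within the limits, 15 ChIP sequences in place of 30 gave 1.83% and 9.69% for CASP8AP2, 6.76% and 11.2% for NPAT, and 1.28% for HINFP in hTERT-RPE1 cells. An E2F1 ratio of at least 5 gave 5.30% for NPAT in hTERT-RPE1 cells and 0% for HINFP in each line, which at 132 regions allows up to 2.27%. At least 50 ChIP sequences gave 2.73% for NPAT in U2OS cells. The cause of these changes was not tested. Of 87 alternative values, 51 stayed within the counting interval of the value reported (for a count, within 1.5 times) and 36 moved beyond it. The 23 chromosomes with shared regions were the same with placed chromosomes only. Without a replicate library no replicate could be left out. No paired analysis was possible because each factor had 1 library per line.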
